A study of Brassica napus with 12 samples.

Results

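Transcript levels of unsubmerged rapeseed seedlings were compared between a pool of germplasm resistant to submergence and a susceptible pool, with 3 control libraries each. Of the 109614 genes in the deposited table, 54838 reached 1 RPKM (reads per unit of gene length and of library size) in at least 3 of these 6 libraries and are called expressed genes here. Both groups were young seedlings of *Brassica napus*, grown on moist paper for about a week until the true leaf formed. The resistant pool was a mixture of equal amounts of 5 germplasm labelled Resistant, and the susceptible pool a mixture of 5 labelled Susceptible. Controls were kept under normal conditions, and 6 further libraries, 3 from each pool, came from seedlings kept fully under water for 24 h. Polyadenylated RNA was sequenced, and the labels call the 3 replicates of each group biological. A library is a mixture of whole seedlings, so single germplasm and single tissues were not measured. A difference between the pools cannot be told apart from any other difference between the germplasm that were mixed, and a smaller share of a cell type cannot be told apart from less RNA per cell.

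Rapeseed is an allotetraploid that carries an A and a C subgenome, and most of its genes therefore have a near-identical homoeologous copy on the other subgenome. Accessions of the crop are known to differ in gene content and in the balance between A and C copies. Chromosomes A01 and C01, A02 and C02, A07 and C06, and A10 and C09 are known to share long homoeologous stretches. Where reads fit both copies equally well they may be shared out or dropped, which leaves the level of either copy uncertain. The identifiers name the chromosome and the order of a gene on it, but the files pair none of them with a gene name, and 0 of them matched the reference table, so the genes are described by chromosome, position and level.

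The expressed genes comprised 24434 on A chromosomes, 25778 on C chromosomes, 3242 listed as new genes and 1384 on unplaced scaffolds. Of these genes, 47093 reached 1 RPKM in all 6 control libraries. Another 2770 did so in exactly 3 libraries, with a median mean level of 1.09 RPKM, and 2271 genes just missed the minimum with 2 libraries and a median of 0.866 RPKM. Among the 2770 were 1045 genes that passed through the resistant libraries alone and 529 that passed through the susceptible libraries alone. For those genes a difference between the pools is partly built into the selection, and 858 of the 1045 were called higher and 442 of the 529 lower by the limma test used for all genes.

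The 6 libraries differed in depth and in the level of some stretches of genes. Relative depth, read from the spacing of low values, was 1, 0.85 and 0.636 in the resistant controls and 0.727, 0.766 and 0.783 in the susceptible controls, while absolute depth was unknown. In 36 of 1003 windows of 50 neighbouring expressed genes, the mean level varied widely between replicates, with an SD within groups above 0.3 on the log2 scale against a median of 0.0564 over all windows (co-varying windows hereafter). A05 held 17 of them, A09 12, A06 4, A01 2 and C08 1. Their mean log2(RPKM + 1), relative to the library median, was -0.056, 0.49 and 1.13 in the resistant controls and 1.21, 0.64 and 0.86 in the susceptible controls. The groups overlapped, the first resistant control was the lowest and the scaffold genes followed the same order within the resistant controls. None of the 36 windows, and 16 of their 1800 genes, was called different between the pools. The spread that picked these windows is also the error of the test. The lack of calls thus follows largely from the selection and does not show equal levels. The chromosome tests and the A against C difference are given with and without these windows.

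More genes were higher than lower in the resistant pool. Against susceptible controls, 6103 expressed genes were higher in resistant controls and 2749 lower (limma, Benjamini-Hochberg adjusted p under 0.05, called genes hereafter). Over all 57391 genes tested, the fit called 10.9% higher and 5.02% lower. The median log2 difference of called genes was 0.74 for higher and -0.87 for lower ones, and over all expressed genes it was 0.067. Differences of at least 2-fold were found for 1660 higher and 1128 lower genes, of at least 4-fold for 228 and 202, and of at least 8-fold for 48 and 28. With the median difference of all expressed genes subtracted first, 1435 higher and 1240 lower called genes were past 2-fold. Without the 1574 genes that reached the minimum through 1 pool alone, 5245 of the called genes were higher and 2307 lower. The resistant and susceptible controls did not overlap, with the resistant ones above, for 12100 expressed genes, and with the resistant ones below for 5663. Over all genes tested, the same holds for 21.8% and 10.5%. The size of the excess depended on the scaling: 68.9% of calls were higher as deposited, against 57% with quantile normalization (4831 higher, 3649 lower) and 55.2% with median ratio scaling (4291 higher, 3476 lower).

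The counts rested in part on single libraries. Without the first resistant control 3609 expressed genes were higher and 1723 lower, without the first susceptible control 3602 and 1799, and without the third resistant control 4191 and 1663.

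As deposited, the split between higher and lower genes changed with the expression level. Among the 9274 expressed genes with a mean under 2 RPKM, the resistant pool was higher for 13.3% and lower for 5.45%. These shares rest largely on genes that reached the minimum in the 3 libraries of 1 pool alone, which supplied 714 of the 1229 higher and 361 of the 505 lower calls. Without them 6.50% of 7927 genes were higher and 1.82% lower. From 2 to 5 RPKM, where such genes were few, 12.9% of 15213 genes were higher and 4.27% lower, and 12.3% and 3.89% without them. At 5 to 20 RPKM the shares were 10.6% and 4.57% of 21340 genes, and at 20 to 100 RPKM 7.42% and 6.57% of 8018 genes. At 100 RPKM or more, lower genes outnumbered higher ones, 92 against 52 of 993. The change with level depended on the scaling. With quantile normalization 839 genes were higher and 668 lower below 2 RPKM, 1911 and 1340 at 5 to 20 RPKM, 679 and 534 at 20 to 100 RPKM, and 78 and 77 at 100 RPKM or more. With median ratio scaling lower genes were already in excess at 20 to 100 RPKM, where 405 were higher and 690 lower, and 33 were higher and 112 lower at 100 RPKM or more. These recounts were added after seeing the data. The median standard error of the log2 difference was 0.17 below 2 RPKM and 0.21 at 100 RPKM or more. On log2(RPKM + 1) the spread of weak genes is compressed, so these errors do not compare precision between the classes.

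**Figure D1:**
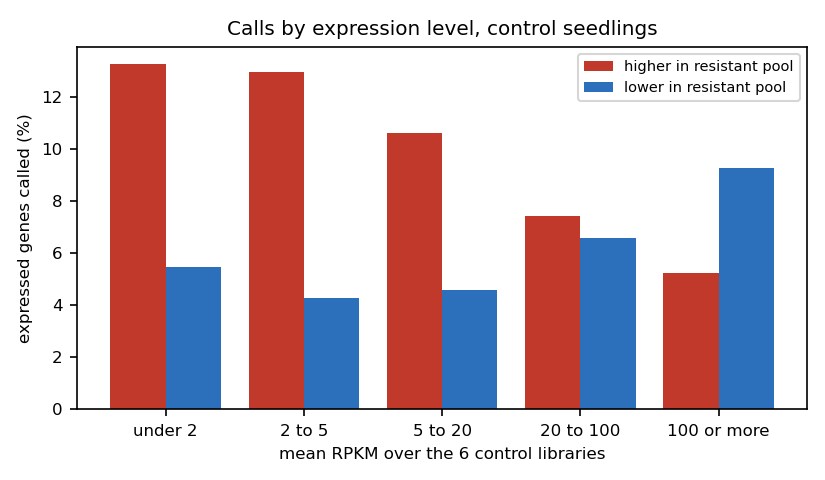
Share of expressed genes called higher (red) or lower (blue) in resistant than in susceptible controls, in percent, by mean RPKM over the 6 control libraries. Higher genes take 13.3% of the weakest class, 6.50% without the genes that reached the minimum through 1 pool alone, and 5.24% of the strongest, where 9.27% are lower.

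The number of genes in use differed between the pools in the same direction. Genes at 1 RPKM or more numbered 53797, 54540 and 54129 in the resistant controls and 53091, 52479 and 52979 in the susceptible controls. The groups did not overlap, and the difference of 1306 genes had the smallest p that 3 against 3 libraries can give (2-sided exact permutation p = 0.1). At the other end, genes at 100 RPKM or more numbered 1043, 971 and 972 in the resistant controls and 1053, 1115 and 1024 in the susceptible controls, which overlapped (exact permutation p = 0.2). With the submerged libraries included and pool names permuted within each treatment, the difference, resistant minus susceptible, was 1467 genes for the lower limit of 1 RPKM and -86.5 for 100 RPKM (exact permutation p = 0.005 and 0.01 over 400 arrangements, 0.0133 and 0.02 after Benjamini-Hochberg adjustment over 8 measures). Neither depth nor the scaling was held equal in these counts.

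Called differences took larger shares of the transcripts listed as new genes than of annotated genes. The resistant pool was higher for 18.5% and lower for 8.05% of the 3242 expressed new genes, with 8.17% and 4.41% past 2-fold. On A chromosomes 10.4% were higher and 5.35% lower, and 2.80% and 2.06% by at least 2-fold. On C chromosomes the shares were 11.3% and 4.45%, and 2.68% and 1.80% by at least 2-fold. New genes were weaker, with a median of 3.17 RPKM against 6.44 on A and 5.90 on C chromosomes. Within 1 level class, 2 to 5 RPKM, differences of at least 2-fold were called for 11.9% of new genes, 4.79% of A genes and 4.66% of C genes. All these shares include genes that reached the minimum through 1 pool alone, and they were not recomputed without them. At 5 to 20 RPKM, where 42 genes over all classes were of that kind, the 2-fold shares were 8.4%, 4.3% and 3.9%. The scaffold genes stood at the low end, with 3.25% higher and 2.46% lower, a median log2 difference of -0.22 and a median standard error of 0.33. The difference between these classes was not tested, because genes are not replicates of a pool.

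Genes that were listed at 0 in all 3 controls of 1 pool and at 1 RPKM or more in all 3 controls of the other were counted separately. Among the 54838 expressed genes, 123 were at 0 in the susceptible pool and 70 at 0 in the resistant pool. All of them reached the minimum through the other pool alone, so their difference in controls is built into the selection. Their median level in the other pool was 2.64 and 2.52 RPKM, and 20 and 7 of them averaged 5 RPKM or more, up to 86.0 and 20.5 RPKM. A value of 0 can be a failed estimate and depends on depth, so no fold change is given. New genes made up 29 of the 123 and 24 of the 70, against 3242 of the 54838 expressed genes. C02 held 12 of the genes at 0 in the susceptible pool, the highest share of any chromosome. Of those at 0 in the resistant pool, C09 held 8, and C06 and A03 held 6 each.

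The full pattern, 0 in all libraries of 1 pool and 1 RPKM in all of the other, was seen again in submerged seedlings, which were not used to choose the genes, for 51 of the 123 and 28 of the 70 genes. Of the 123 genes, 92 were listed at 0 in all 3 susceptible submerged libraries and 70 reached 1 RPKM in all 3 resistant submerged libraries. Of the 70 genes, 60 were at 0 in all 3 resistant submerged libraries and 36 reached 1 RPKM in all 3 susceptible submerged ones. No gene of either set had the opposite pattern after submergence, and 2 and 1 of them reached 1 RPKM in a submerged library of the pool where they had been at 0.

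Single genes were picked from the control values. They had to be called, without overlap between the pools, above 0 in all 6 control libraries and at a mean of at least 5 RPKM. Among such genes, the largest differences were near presence and absence as well. Their separation and p-values in controls follow from this choice and are a description. BnaA02G0084200ZS, number 495 of 2128 expressed genes on A02, stood at 175, 185 and 174 RPKM in the resistant controls and at 0.0947, 0.0757 and 0.172 RPKM in the susceptible controls. All 3 resistant values lay far above the susceptible ones. The log2 difference was 7.33 ± 0.32 (SE; limma adjusted p = 2.67e-07). Under water the resistant pool had 87.9, 79.7 and 96.3 RPKM and the susceptible pool 0.155, 0 and 2.12 RPKM (log2 difference 5.85 ± 0.32, SE; limma adjusted p = 2.14e-06).

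BnaA03G0299200ZS, number 1775 of 3310 expressed genes on A03, had 32.4, 36.2 and 28.1 RPKM in the resistant controls and 0.924, 1.14 and 0.952 RPKM in the susceptible controls. The groups were apart, with little spread inside either. The log2 difference was 4.04 ± 0.20 (SE; limma adjusted p = 5.45e-07), and after submergence it was 4.39 ± 0.20 (SE; limma adjusted p = 4.09e-07).

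The opposite pattern was largest for BnaA10G0189100ZS, number 1033 of 1744 on A10, at 0.758, 0.241 and 0.221 RPKM in the resistant controls and 24.3, 26.3 and 27.1 RPKM in the susceptible controls. It was listed at 0 in all 3 resistant submerged libraries and at 22.2, 25.6 and 7.91 RPKM in the susceptible submerged ones, so the third of these was lower than its fellows. The log2 difference in controls was -4.28 ± 0.33 (SE; limma adjusted p = 1.62e-05). BnaA03G0173800ZS, number 1030 on A03, had 0.173, 0.145 and 0.297 RPKM in the resistant controls and 13.4, 13.8 and 19.3 RPKM in the susceptible controls, with no overlap. Its log2 difference was -3.76 ± 0.35 in controls and -2.72 ± 0.35 after submergence (SE; limma adjusted p = 6.55e-05 and 0.000772). All 4 genes kept their call in each of the 21 alternatives, with the highest limma adjusted p at 0.000604. The genes were picked for large control differences, and several alternatives could not change these differences. No change of the pool difference with submergence was called for them (limma adjusted p = 0.201 to 0.932 for the interaction).

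**Figure D2:**
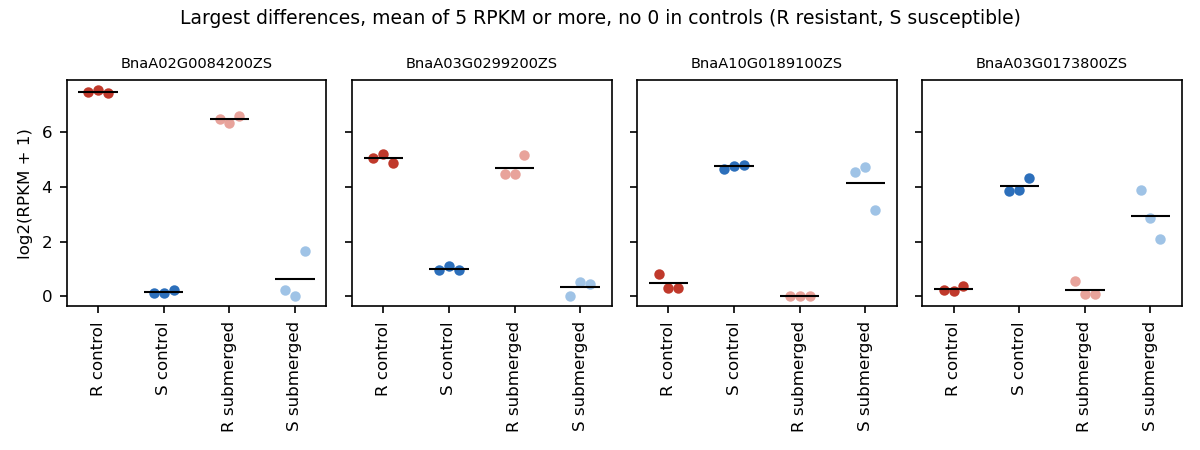
Level, as log2(RPKM + 1), of the 2 highest and 2 lowest pool differences among called genes with a mean of at least 5 RPKM, no 0 and no overlap in controls, in the 3 libraries (points) and the mean (line) of each group. BnaA02G0084200ZS and BnaA03G0299200ZS are higher in the resistant pool (R), BnaA10G0189100ZS and BnaA03G0173800ZS in the susceptible pool (S), in controls and under water.

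The basal differences were uneven over the 19 chromosomes. C02 stood out, with 535 of 2457 expressed genes (21.8%) higher and 87 (3.54%) lower in the resistant pool. C06 followed with 16.6% higher and 3.33% lower, A03 with 14.4% and 4.68%, and C09 with 14.04% and 3.40%. The lowest shares of higher genes were 6.91% on C08, 7.56% on A09 and 7.74% on C07. Lower genes were most frequent on A01, with 7.11%, and least frequent on A05, with 2.81%. A05 and A09 hold 17 and 12 of the 36 co-varying windows, in which only 16 of 1800 genes were called. These windows lower the shares of both chromosomes, which were not recomputed without them.

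Tested over libraries, the mean level of C02 differed between the pools. Its mean log2(RPKM + 1) relative to the library median was 0.23, 0.16 and 0.17 in the resistant controls and 0.011, -0.063 and 0.072 in the susceptible controls. The groups did not overlap, and the difference of 0.18 ± 0.034 (SE) passed the test over the 19 chromosomes (limma adjusted p = 0.00396). This was 1 of 19 chromosomes (5.26%) called higher, and 0% were called lower. At an unadjusted p under 0.05 there were 2 higher and 5 lower chromosomes. Without the co-varying windows and scaffold genes 2 chromosomes were higher and 13 lower, with the library median then taken over fewer genes. The call for C02 passed the threshold in each alternative in which chromosomes were recomputed, with a difference of 0.14 to 0.27. Under water the C02 difference was 0.108 and was not called (limma adjusted p = 0.0775). Chromosomes and segments were not recomputed without an expression minimum or with the minimum set in controls alone. C06 reached 0.072 (limma adjusted p = 0.0606) and A09 -0.11 (limma adjusted p = 0.0561), and A09 holds 12 of the co-varying windows. Without those windows and scaffold genes the A09 difference was -0.074 (limma adjusted p = 0.000435). These windows were picked for their spread within groups, which is part of the error of this test. The smaller p and the 13 lower chromosomes cannot be told apart from that selection.

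**Figure D3:**
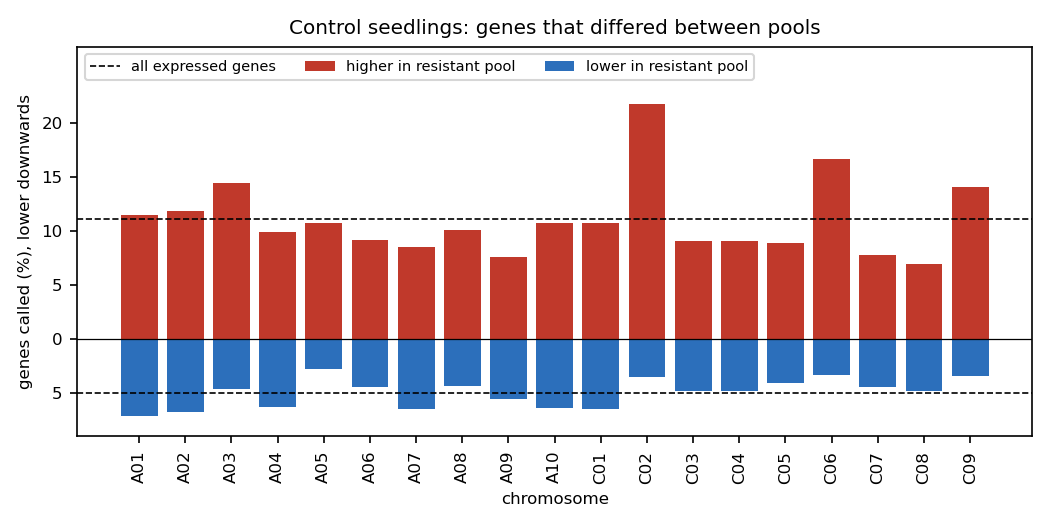
Percent of expressed genes on each chromosome called higher (red, upwards) or lower (blue, downwards) in resistant than in susceptible controls, with the shares over all expressed genes as dashed lines. C02 reaches 21.8% higher, against 6.91% on C08.

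A and C subgenomes were compared by the difference between their mean levels in each library. It was -0.00047, 0.033 and 0.074 in the resistant controls and 0.10, 0.077 and 0.082 in the susceptible controls, in log2(RPKM + 1). The A side was thus lower against the C side in the resistant pool, by 0.052, without overlap (2-sided exact permutation p = 0.1, the smallest possible). Without the co-varying windows the values were 0.021, 0.013 and 0.0067 in the resistant and 0.036, 0.051 and 0.037 in the susceptible controls, again without overlap (exact permutation p = 0.1). Over both treatments the difference was -0.038 (exact permutation p = 0.11 over 400 arrangements), and 0.00095 without those windows (p = 0.93).

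Part of the pool differences lay in stretches of neighbouring genes. The mean level of each window of 50 neighbouring expressed genes, relative to the library median, was tested over libraries, so that neighbouring genes did not count as replicates. Of 1003 windows, 131 (13.1%) were higher and 146 (14.6%) lower in resistant controls (limma adjusted p under 0.05). The split depends on the centre and the scale: without subtraction of the library median 342 windows were higher and 65 lower, with quantile normalization 172 and 116, and with an offset of 0.1 RPKM 159 and 130. The first susceptible control and the third resistant control weighed most, with 83 higher windows without the susceptible library and 95 lower windows without the resistant one. C02 had 23 windows higher and 0 lower out of 49, C06 15 and 4 of 46, A03 15 and 7 of 66, and C09 13 and 6 of 62. A09 had 8 higher and 18 lower windows out of 80, A07 6 and 12 of 44, and C08 1 and 12 of 53. Of the 80 windows on A09, 12 were co-varying.

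Runs of at least 3 adjacent windows called in the same direction were taken as segments, a definition chosen after seeing the data. There were 23 segments, 12 higher and 11 lower, which held 107 of the 277 called windows and 5350 expressed genes (9.76%). Of all called genes, 1465 (16.6%) lay in segments, and most called genes thus lay outside them. Their differences ranged from 0.14 to 0.72 in size, and none of them changed direction in the alternatives in which they were recomputed, scaling and centring included. Some of these alternatives leave the control levels untouched and could not have changed the differences. Since the segments were picked from the control values, these values are given as a description.

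Several segments came in pairs of opposite direction on chromosomes known to be homoeologous. Levels of segments are again mean log2(RPKM + 1) relative to the library median. On C06, expressed genes 1501 to 2000 stood at 0.30, 0.28 and 0.25 in the resistant controls and at -0.0062, 0.070 and -0.11 in the susceptible controls. On A07, genes 1501 to 1950 stood at 0.24, 0.23 and 0.18 in the resistant controls and at 0.50, 0.49 and 0.53 in the susceptible controls. The resistant libraries were thus above the susceptible ones on C06 and below them on A07. On C06 173 of 500 genes (34.6%) were called higher, against 11.1% of all expressed genes. On A07 62 of 450 genes (13.8%) were called lower, against 5.01% of all expressed genes. Single genes mostly had the sign of their segment: 86.2% had a positive difference on C06 and 75.6% a negative one on A07, against 57.8% positive among all expressed genes. Over the 23 segments this share ranged from 46.7% to 90.7%, and it was below 50% in 1 of them, C04 genes 451 to 600, which was called lower.

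The same opposition was seen at 3 further places. On C02, genes 101 to 500 stood at 0.23, 0.16 and 0.19 in the resistant and -0.28, -0.32 and -0.21 in the susceptible controls. Of these 400 genes 185 (46.3%) were called higher, against 11.1% of all expressed genes, and 63 of the 185 by at least 2-fold. On A02, genes 201 to 450 stood at 0.13, 0.042 and -0.0027 in the resistant and 0.33, 0.35 and 0.40 in the susceptible controls. On C01, genes 601 to 800 stood at 0.27, 0.22 and 0.21 in the resistant and -0.014, 0.14 and -0.20 in the susceptible controls, while on A01, genes 551 to 750 stood at 0.30, 0.35 and 0.29 in the resistant and 0.62, 0.66 and 0.62 in the susceptible controls. On C09, genes 2551 to 2850 stood at 0.31, 0.30 and 0.25 in the resistant and 0.018, 0.17 and -0.069 in the susceptible controls, and on A10, genes 1351 to 1650 at 0.18, 0.16 and 0.13 in the resistant and 0.35, 0.40 and 0.42 in the susceptible controls. In all of these the pools did not overlap. In the C01, C06 and C09 segments the 3 susceptible controls were spread more widely than the resistant ones and ranked alike, with the third lowest and the second highest. Not all segments of these chromosomes were opposed: A02 genes 1101 to 1250 and C02 genes 801 to 950 were both higher in the resistant controls. Other pairs of homoeologous chromosomes were not compared, so how often their segments run against each other is not given. The A and C genes of the segments were not paired, and whether they are copies of each other was not tested.

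**Figure D4:**
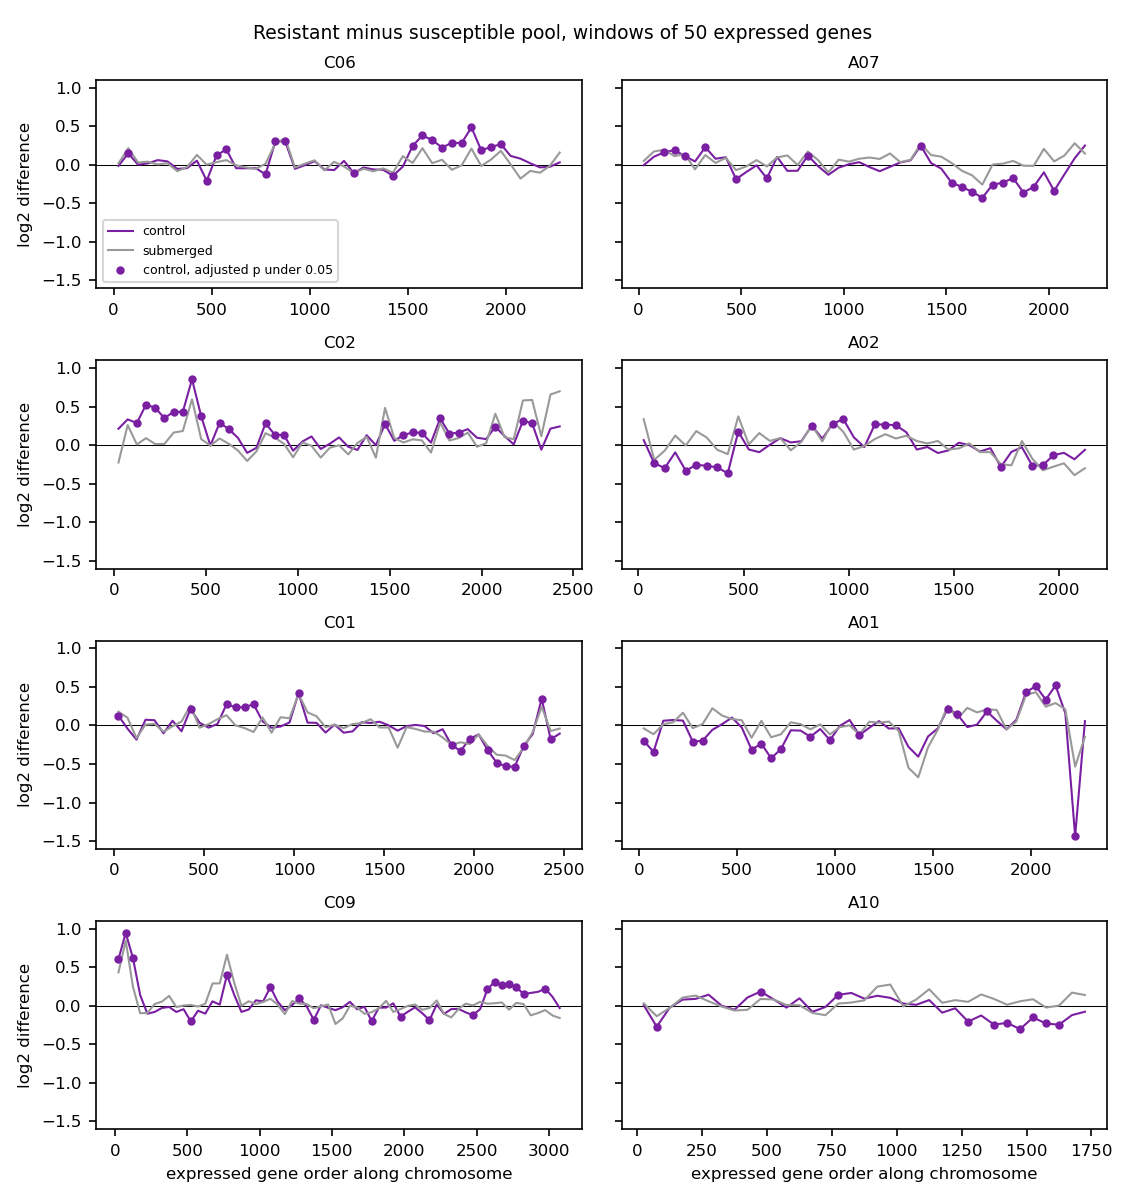
Resistant minus susceptible log2 difference of window means along 8 chromosomes, in control (purple) and submerged (grey) libraries, with filled points for windows with an adjusted p under 0.05 in controls. C06, C02, C01 and C09 carry positive stretches and A07, A02, A01 and A10 negative ones in controls, at positions that were not matched between chromosomes. C01, A01, A02 and A07 also carry stretches of the other sign.

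The far ends of A01 and C01 also ran against each other, with the directions exchanged. On A01, genes 1951 to 2150 stood at 0.30, 0.26 and 0.21 in the resistant and -0.20, -0.20 and -0.17 in the susceptible controls. Of these 200 genes 93 (46.5%) were called higher, against 11.1% of all expressed genes. On C01, genes 2051 to 2300 stood at -0.23, -0.12 and -0.27 in the resistant and 0.20, 0.26 and 0.21 in the susceptible controls. Of these 250 genes 67 (26.8%) were called lower, against 5.01% of all expressed genes. A shorter stretch of A01, beyond its segment, was the longest unbroken run of called genes: 32 neighbouring expressed genes, numbers 2211 to 2242 of 2292, were all called lower in the resistant pool. Their median level was 0.965, 0.669 and 0.753 RPKM in the resistant controls and 6.92, 7.41 and 8.09 RPKM in the susceptible controls. After submergence it was 0.868, 1.38 and 1.68 RPKM in the resistant pool and 4.38, 4.50 and 1.98 RPKM in the susceptible pool, so that the third susceptible submerged library came close to the resistant ones. The next longest runs were 13 higher genes on A01 and 13 on C09, and 12 and 11 on C02.

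The start of C09 carried the segment with the largest difference. Its first 150 expressed genes stood at 0.49, 0.59 and 0.48 in the resistant and -0.18, -0.052 and -0.37 in the susceptible controls. The difference was 0.72, and 88 of the 150 genes (58.7%) were called higher, against 11.1% of all expressed genes. Of the 88, 49 differed by at least 2-fold. On C08, genes 2401 to 2650 of 2662 stood at -0.14, -0.071 and -0.15 in the resistant and 0.17, 0.23 and 0.14 in the susceptible controls. On A09, genes 51 to 350 stood at 0.19, 0.063 and 0.15 in the resistant and 0.45, 0.43 and 0.52 in the susceptible controls, and on A03, genes 1601 to 1850 at 0.30, 0.30 and 0.24 in the resistant and 0.084, 0.13 and 0.042 in the susceptible controls. In each of these segments the 3 resistant libraries lay on 1 side of all susceptible ones.

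Genes at 0 in 1 pool were counted inside and outside the segments. Segments higher in the resistant pool held 2750 genes, of which 19 (0.691%) were at 0 in the susceptible controls and 2 at 0 in the resistant controls. Segments lower in the resistant pool held 2600 genes, with 2 (0.0769%) at 0 in the resistant and 2 at 0 in the susceptible controls. On chromosomes outside the segments the shares were 0.161% at 0 in susceptible and 0.0936% at 0 in resistant controls. The segments were chosen on the same libraries, so these shares are a description.

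**Figure D5:**
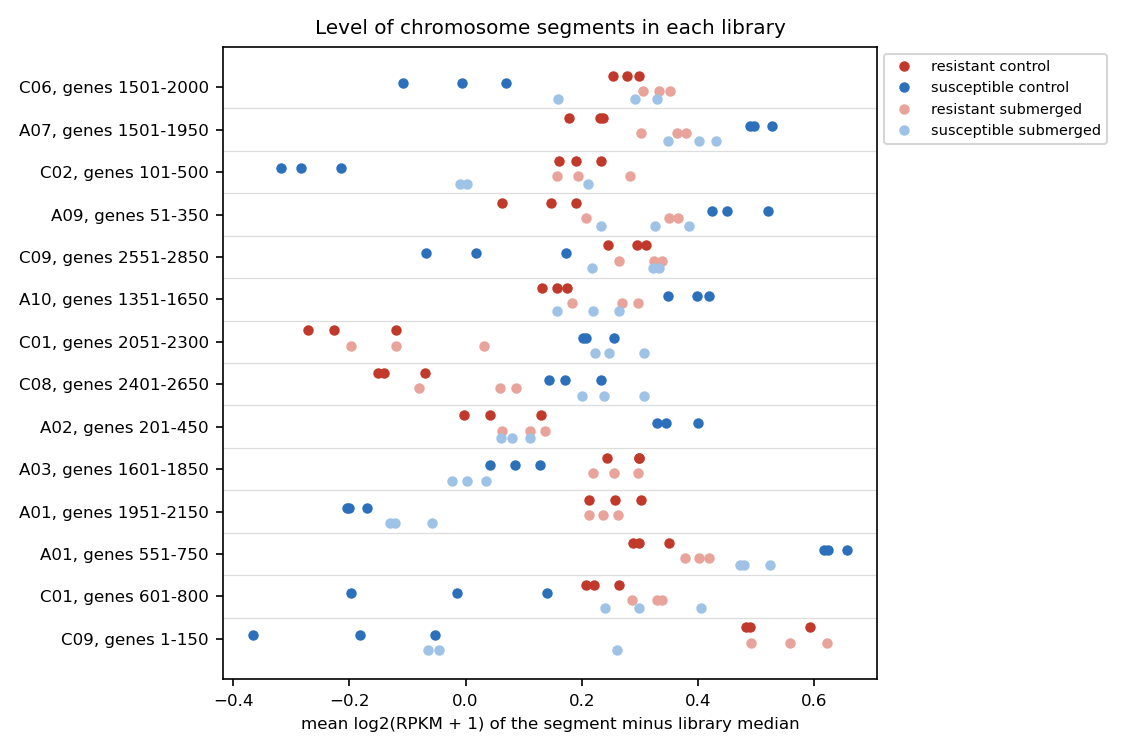
Mean log2(RPKM + 1) minus the library median in 14 of the 23 segments, ordered by length, for each of the 12 libraries (points, coloured by group). In C09 genes 1 to 150 and A01 genes 1951 to 2150 the pools stay apart after submergence, whereas in C06, A07, A02 and A10 the submerged libraries of both pools lie close together.

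The submerged libraries were a second sampling of both pools. Their levels do not enter the control difference, but the fit takes its variances and its expression minimum from all 12 libraries, so the calls in controls and under water are not independent. Of the genes higher in resistant controls, 2797 (45.8%) were called higher under water as well and 24 lower, against 11.7% of all tested genes called higher there. Of those lower in resistant controls, 1058 (38.5%) were called lower under water and 20 higher, against 4.67% called lower. The sign was the same for 91.6% of the higher and 87.4% of the lower genes, and over all expressed genes 59.2% were positive and 40.8% negative under water. The repeat was more complete for large differences: 192 of 228 genes higher by at least 4-fold and 118 of 202 lower by at least 4-fold were called again in the same direction. The estimates were smaller under water, with medians of 2.35 in controls and 1.84 under water for the 228 genes, and -2.33 and -1.29 for the 202 genes. Genes chosen for a large value tend to be smaller in a second measurement, so these medians do not measure a change. New genes were called again in 53.3% of higher and 56.3% of lower cases, C genes in 40.5% and 38.8%, and A genes in 50.04% and 35.0%.

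The windows and segments differed in how far they were seen under water. Of the 131 windows higher in controls 67 were called higher in submerged libraries and 0 lower, and of the 146 lower windows 39 were called lower and 3 higher (12.1% and 5.88% of all windows were called higher and lower there). Within the 23 segments, 37 of 107 windows were called again in the same direction, 21 segments kept the sign of their difference, and in 13 the pools did not overlap. The log2 difference at the start of C09 was 0.72 in controls and 0.51 under water, and for A01 genes 1951 to 2150 it was 0.45 in controls and 0.34 under water. C01 genes 2051 to 2300 had -0.43 in controls and -0.36 under water, C08 genes 2401 to 2650 -0.30 in controls and -0.23 under water, and A03 genes 1601 to 1850 0.20 in controls and 0.25 under water.

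Other segments had smaller differences under water. The log2 difference of the C06 segment was 0.29 in controls and 0.070 under water, and that of the A07 segment -0.29 in controls and -0.045 under water. C02 genes 101 to 500 had 0.47 in controls and 0.14 under water, A02 genes 201 to 450 had -0.30 in controls and 0.020 under water, and A10 genes 1351 to 1650 had -0.23 in controls and 0.037 under water. For C01 genes 601 to 800 the difference was 0.26 in controls and 0.0032 under water, and for A09 genes 51 to 350 it was -0.33 in controls and -0.0069 under water. In the C06 segment the resistant submerged libraries stood at 0.33, 0.31 and 0.35 and the susceptible submerged ones at 0.16, 0.33 and 0.29, so the groups overlapped. Over all 1003 windows the test of the change in pool difference with treatment called 18, of which 2 were among the windows higher in controls and 13 among the lower ones.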

How the data were processed

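Of 12 libraries, the 6 controls form the comparison and the 6 submerged libraries add to the estimate of spread and serve as a second sampling. The authors deposited RPKM values per gene and library. Per the submitters' processing notes, HISAT2 and StringTie were used. Neither their roles nor a genome build or annotation is given in the sources used here. Count models need whole reads and were left out.

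Values were taken as log2(RPKM + 1), on which fold changes of weak genes are understated. A minimum of 1 RPKM in 3 or more of the 12 libraries left 57391 genes, which were fitted with limma 3.58.1 in R 4.3.3, with 4 group means, a variance trend, 8 residual degrees of freedom, 2-sided tests and Benjamini-Hochberg adjustment at 0.05. The 2553 tested genes outside the expressed set are not described. Window means (50 expressed genes in identifier order, at least 25), less the library median, were fitted the same way. The 19 chromosome means, also less the library median, were fitted alike but without the variance trend. Single values per library used exact permutation tests. The fits were tested on simulated data. Relative depth came from ratios of RPKM values below 0.3, and no counting intervals are given because absolute depth is unknown. No 2 libraries were identical, with 70.6% or more of the genes different between any pair. Named genes are the 2 highest and the 2 lowest log2 differences among called genes that averaged 5 RPKM or more over the controls, with no overlap and no 0 in controls.

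Alternatives were an offset of 0.1, other filters, quantile normalization, median ratio scaling, only control libraries, the replicate number as a block, other window lengths, no centring and leaving out each library. A fit that leaves out scaffold genes and co-varying windows was added after seeing the data. The comparison, the gene classes and the tests were chosen with earlier results of these data known. The labels do not say that replicates came from separate sowings, so p-values measure the spread between these mixtures.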

Additional observations from a re-analysis of the deposited data

Results flagged for a closer look

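The pool difference changed between control and submerged libraries for part of the results, by the interaction term of the same limma fits (Benjamini-Hochberg adjusted p under 0.05). Among the expressed genes called in controls, 64 of the higher and 70 of the lower ones had such a change, out of 168 over all expressed genes. Among windows, 2 of the 131 higher and 13 of the 146 lower ones did. By segment, these were 3 windows in A09 genes 51 to 350, 2 each in A10 genes 1351 to 1650, A02 genes 201 to 450 and A01 genes 551 to 750, and 1 each in C06 genes 1501 to 2000, A07 genes 1501 to 1950 and C02 genes 101 to 500. The control libraries that picked these genes and windows also enter the interaction, which raises such counts by itself. Groups of 3 libraries are too small for the check on single outlying samples.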

How the results depend on the processing

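Sizes of counts moved with the settings, and some directions did as well. Called genes were more often higher than lower in each setting. With the main settings more windows were lower than higher, but quantile normalization, an offset of 0.1 RPKM and no centring, among others, reversed this. The excess among genes at 20 to 100 RPKM and the A against C difference over both treatments also changed sign in 1 setting each. With a mean of at least 5 RPKM, which tests fewer genes, 2611 expressed genes were higher and 1557 lower in resistant controls, 1160 and 553 were called again under water, and 47 and 40 windows were called. With only the control libraries, which leaves fewer residual degrees of freedom, 3971 genes were higher and 1729 lower, and 1 chromosome was lower. With quantile normalization 3 chromosomes were higher. Without centring 342 windows were higher and 65 lower and 6 chromosomes were higher. Windows of 25 genes gave 259 higher and 288 lower, and windows of 100 genes 63 and 80. Without the co-varying windows and scaffold genes 256 windows were lower, 2 chromosomes were higher and 13 lower, and the A against C difference over both treatments was 0.00095 instead of -0.038 (exact permutation p = 0.93). The windows left out were picked for a wide spread within groups, so the added window and chromosome calls give no further support. Requiring 5 RPKM in the other pool left 15 genes at 0 in the susceptible and 6 at 0 in the resistant controls. The cause was not tested where none is given.

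Leaving out each of the 12 libraries gave 3602 to 6540 higher and 1663 to 3151 lower genes, 1723 to 3211 higher and 655 to 1376 lower genes called again under water, 83 to 142 higher and 95 to 158 lower windows, 1 to 2 higher and 0 to 4 lower chromosomes, and a C02 difference of 0.14 to 0.21. The A against C difference ranged from -0.072 to -0.034 in controls and from -0.051 to -0.026 over both treatments, where it passed the threshold without the second susceptible submerged library (exact permutation p = 0.03). The genes at 0 numbered 123 to 146 in the susceptible and 70 to 82 in the resistant controls. The difference kept its direction for all 23 segments in all 460 recomputed values, of which 49 moved by more than the spread between susceptible controls. Part of the 460 could not change. Leaving out a submerged library, using only controls or adding a replicate block leaves the control means as they were.

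In the fit with a replicate block, 5363 genes were higher and 2530 lower, 122 windows were higher and 132 lower, and the calls for C02 (limma adjusted p = 0.00738) and the 4 named genes held. The deviations of same-numbered controls correlated at -0.22, 0.32 and 0.035 across genes, and those of different number at -0.285 to 0.294. With so few libraries these values cannot tell whether the numbers pair the pools. Depth limits what a value of 0 shows, since the shallowest control had 0.636 of the depth of the deepest.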
